A study of Homo sapiens with 12 samples.

Results

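The genes considered here handle iron in the cell: its uptake, its transport into mitochondria, its storage and its recovery from heme. The 9 genes are TFRC, TFR2, STEAP3, SLC11A2, SLC25A37, ABCB10, FTH1, FTL and HMOX1. For each of them a fixed window of the human genome (build hg19) was set, 23 to 64 kb long and 432 kb in all. Every listed GATA1 or TAL1 interval that overlapped a window was taken. That gave 22 intervals of the 24658 distinct intervals in the 2 lists. Each was classed as shared when the same start and end stood in both lists, and otherwise as GATA1 only or TAL1 only.

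The intervals come from chromatin immunoprecipitation and sequencing of K562, a human erythroleukemia cell line, in the control condition. There was 1 library for GATA1 and 1 for TAL1, so nothing could be set against a spread between replicates. The series has 12 libraries, with LDB1, H3K27ac and input and with short hairpin RNA knockdown of GATA1 or TAL1, and the other 10 were not analysed here. What the control cells carry in place of the knockdown vector was not given in the labels. Chromatin was cut with micrococcal nuclease to fragments of about 1 or 2 nucleosomes before precipitation, per the labels' protocols. The GATA1 list has 22769 intervals and the TAL1 list 8918, with no height, p-value or summit, and the depth of the libraries is unknown. No RNA was analysed, so nothing is known here of how strongly any of these genes was expressed.

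Red cell precursors take up more iron than almost any other cell, because each makes large amounts of hemoglobin. Iron arrives bound to transferrin, enters by the transferrin receptor in an endosome, is reduced there and exported to the cytosol, and then passes into mitochondria, where heme is made. Surplus iron is stored in ferritin, and heme oxygenase frees iron when heme is broken down. GATA1 is the zinc finger factor that directs erythroid gene expression, and TAL1, of the basic helix-loop-helix family, acts with it in a complex on many erythroid enhancers. Several iron genes are also controlled after transcription, by iron regulatory proteins that bind the mRNA, a layer that these data do not touch.

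GATA1 intervals were found in the windows of 8 of the 9 genes, and shared intervals in 7. Of genome tiles of 48 kb, the mean window length, 19.8% held any interval and 7.98% a shared one, or 40.3% of the tiles with any. Tiles include gene-free and unassembled sequence, while every window was drawn around a gene and chosen with earlier results of these data known. Of the 22 intervals, 9 were shared, 12 were GATA1 only and 1 was TAL1 only. The HMOX1 window held none, and the FTL window held GATA1-only intervals alone. ABCB10 and SLC25A37, which both serve iron transport into mitochondria, were the only genes with 2 shared intervals in the window. TFRC, TFR2, STEAP3, SLC11A2 and FTH1 each had 1.

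**Figure D1:**
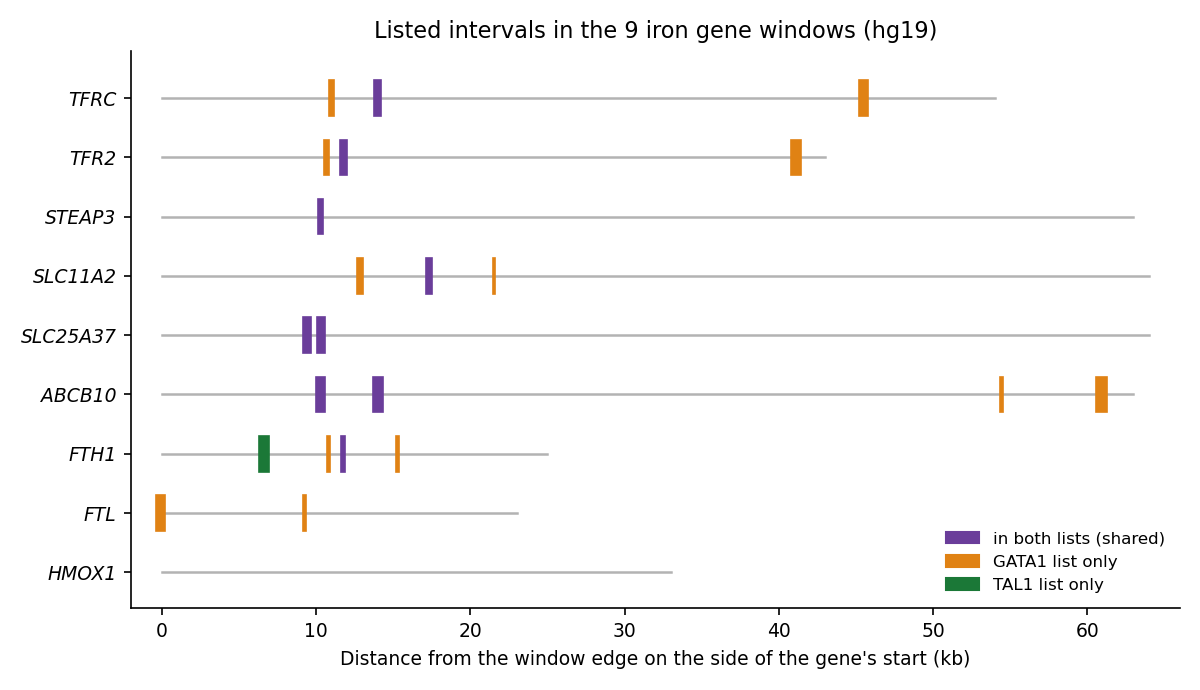
Positions of all 22 listed intervals in the 9 gene windows. Grey lines are the windows, drawn from the edge on the side of the gene's start (0 kb), coloured blocks are the intervals to scale, and in 8 windows an interval is centred between 9.23 and 12.84 kb from that edge.

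Promoter sequence is shown for the 5 genes that the promoter table holds, each of whose windows had an interval near that position. The sequences are the 250 bases before the start of transcription as RefSeq gives it for GRCh38.p14, written 5′ to 3′ along the gene. The table has 8 starts for these genes, 4 of them for SLC11A2, of which the only one with GATAA is shown, a choice made after the sequences were seen. The listed intervals are in hg19 and were not placed on these sequences. Capitals mark GATAA or its complement TTATC, the core of GATA factor sites, CANNTG, the E-box bound by basic helix-loop-helix factors, and TATAAA, the TATA box.
ABCB10 (GRCh38.p14 chr1:229558708-229558957, minus strand): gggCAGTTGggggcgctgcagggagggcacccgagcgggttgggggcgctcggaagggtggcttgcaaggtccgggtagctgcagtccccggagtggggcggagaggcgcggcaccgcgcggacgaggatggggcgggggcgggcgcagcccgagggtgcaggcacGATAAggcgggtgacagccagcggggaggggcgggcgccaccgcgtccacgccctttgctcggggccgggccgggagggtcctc
STEAP3 (GRCh38.p14 chr2:119223584-119223833, plus strand): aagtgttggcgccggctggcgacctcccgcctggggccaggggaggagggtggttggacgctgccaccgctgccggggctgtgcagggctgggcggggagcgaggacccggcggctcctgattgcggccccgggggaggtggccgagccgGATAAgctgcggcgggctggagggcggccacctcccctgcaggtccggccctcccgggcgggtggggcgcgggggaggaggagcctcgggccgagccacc
TFRC (GRCh38.p14 chr3:196082091-196082340, minus strand): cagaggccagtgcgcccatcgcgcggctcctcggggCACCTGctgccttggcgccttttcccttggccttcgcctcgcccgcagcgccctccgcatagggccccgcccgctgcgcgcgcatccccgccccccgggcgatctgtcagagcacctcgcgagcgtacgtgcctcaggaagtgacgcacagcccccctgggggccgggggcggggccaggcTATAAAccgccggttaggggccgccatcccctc
SLC11A2 (GRCh38.p14 chr12:51028243-51028492, minus strand): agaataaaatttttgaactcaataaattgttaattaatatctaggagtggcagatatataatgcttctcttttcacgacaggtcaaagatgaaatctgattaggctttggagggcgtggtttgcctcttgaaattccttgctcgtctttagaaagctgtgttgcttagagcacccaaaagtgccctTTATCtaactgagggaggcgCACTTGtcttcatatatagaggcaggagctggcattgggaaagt
FTL (GRCh38.p14 chr19:48965059-48965308, plus strand): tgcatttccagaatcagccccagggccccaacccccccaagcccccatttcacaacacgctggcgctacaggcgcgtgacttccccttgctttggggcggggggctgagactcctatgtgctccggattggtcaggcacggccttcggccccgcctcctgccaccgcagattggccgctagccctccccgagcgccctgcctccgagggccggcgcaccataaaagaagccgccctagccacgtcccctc

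The promoters of ABCB10 and STEAP3 each had 1 GATAA, which in neither was part of AGATAA or TGATAA. It lay 84 to 80 bases before the start in ABCB10 and 100 to 96 bases before it in STEAP3. ABCB10 also had an E-box 247 to 242 bases before the start. The TFRC promoter had no GATAA, but had a TATA box 33 to 28 bases before the start and an E-box 214 to 209 bases before it. For SLC11A2 the start shown is 0.644 kb inside the outermost of its 4 listed starts. It had AGATAA on the opposite strand, 64 to 59 bases before the start, and an E-box 44 to 39 bases before it. The other starts lay 0, 2.5 and 19.7 kb from the outermost one, and none of them had GATAA.

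The longer GATA words, searched on either strand (AGATAA, then TGATAA, then AGATAG, then TGATAG), occurred in 1 of the 8 member promoters and in 22.3% of the 35116 promoters of the table. GATAA, which lies within AGATAA and TGATAA, occurred in 3 of 8 and in 20.4% of the table. CANNTG occurred in 4 of 8, against 61.8%. CTG followed after 7 to 9 bases by one of the GATA words, the spacing of a joint GATA and E-box site, occurred in 0 of 8, against 1.73%. TATAAA occurred in 1 of 8, against 10.7%. GGGCGG, the GC box bound by SP1, occurred in 5 of 8, against 42.6%. The promoters of ABCB10, STEAP3 and TFRC were 77.2%, 78.4% and 74.4% G and C, above the median of 58% for the table, and the SLC11A2 promoter shown was 40% G and C. The FTL promoter (67.6% G and C) had no GATAA, no CANNTG and no TATAAA, and had GGGCGG at 2 places. A match describes the letters and is not a measured site.

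The transferrin receptors come first in the pathway. TFRC encodes transferrin receptor 1, the main route of iron into erythroid cells. Its window on 3q29 held 3 GATA1 intervals, of which 1 was shared. The GATA1-only interval at chr3:195808830-195809167 (338 bp) was centred 11.0 kb from the window edge on the side of the gene's start. The shared interval at chr3:195805825-195806215 (391 bp) lay 2.98 kb further in, from centre to centre. Another GATA1-only interval, chr3:195774230-195774778, was 549 bp wide and lay 45.5 kb from that edge, towards the end of the gene and its neighbour TNK2. Only 8.55% of all GATA1-only intervals were at least as wide.

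TFR2 encodes transferrin receptor 2, which senses iron-loaded transferrin in liver and erythroid cells. The TFR2 window on 7q22.1 held the same classes in the same order as that of TFRC, with a shorter gap before the shared interval (0.75 against 2.61 kb). A GATA1-only interval at chr7:100240170-100240507 was 338 bp wide and centred 10.66 kb from the edge on the side of the gene's start. The shared interval at chr7:100239022-100239418 (397 bp) followed after a gap of 751 bp. The last, chr7:100209544-100210207, was GATA1 only, 664 bp wide and 41.12 kb from that edge, on the side of the neighbouring gene MOSPD3. It was among the widest of its class, of which 3.97% were at least as wide. The window is 43 kb long, so this interval lay close to its far edge. Whether it belongs to TFR2 or to MOSPD3 was not determined. Beyond the window on the MOSPD3 side lay GATA1-only intervals of 184 and 305 bp, 5.47 and 5.73 kb from it.

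STEAP3 and SLC11A2 act in the endosome. STEAP3 is the ferrireductase that reduces iron released from transferrin. Its 63 kb window on 2q14.2 held 1 interval, which was shared: chr2:119981153-119981446, 294 bp wide and centred 10.3 kb from the edge on the side of the gene's start. The nearest intervals outside the window were both GATA1 only and lay 37.6 kb below and 90.3 kb above it. STEAP3 was thus the gene with the fewest intervals among the 8 with any.

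SLC11A2 encodes DMT1, the carrier that moves the reduced iron out of the endosome. Its window on 12q13.12 held 3 GATA1 intervals on the side of the gene's start, with gaps of 4.07 and 3.92 kb. The outer one, chr12:51419965-51420361 (397 bp), was GATA1 only and centred 12.84 kb from the edge. The middle one, chr12:51415465-51415891 (427 bp), was shared and lay 4.49 kb further in. The inner one, chr12:51411433-51411544, was GATA1 only and 112 bp wide, the narrowest of all 22, and 92.4% of all distinct intervals were at least as wide. The surroundings were sparse, with the next intervals 41.5 kb below the window and 179 kb above it.

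SLC25A37 and ABCB10 serve the mitochondrial step. SLC25A37 encodes mitoferrin 1, which carries iron across the inner mitochondrial membrane. Its window on 8p21.2 held 2 intervals, both shared. They were chr8:23385171-23385682 (512 bp) and chr8:23386093-23386595 (503 bp), separated by 410 bp and centred 9.43 and 10.34 kb from the edge on the side of the gene's start. SLC25A37 and STEAP3 were the genes whose windows held shared intervals and no other. Just beyond the window, 1.46 kb from it, lay a GATA1-only interval of 351 bp, and 9.01 kb from it a shared interval of 737 bp, chr8:23366259-23366995.

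ABCB10 encodes a transporter of the inner mitochondrial membrane that is known to stabilise mitoferrin 1. The ABCB10 window on 1q42.13 held 4 GATA1 intervals, the most of any member. The shared intervals lay together on the side of the gene's start. The outer, chr1:229694435-229694991 (557 bp), was centred 10.29 kb from the edge, and the inner, chr1:229690633-229691292 (660 bp), 3.75 kb further in. Of all shared intervals, 15.6% were at least as wide as the outer and 7.18% at least as wide as the inner. The other 2 were GATA1 only and lay at the far end, towards NUP133: chr1:229650465-229650669 (205 bp) and chr1:229643746-229644432 (687 bp). They were 54.43 and 60.91 kb from the edge, in a window 63 kb long. Whether they belong to ABCB10 or to NUP133 was not determined.

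FTH1 and FTL encode the heavy and light chains of ferritin, the iron storage protein. The FTH1 window on 11q12.3, 25 kb long, was the most densely filled, with 4 intervals or 1.6 per 10 kb, and held intervals of all 3 classes. Nearest the edge on the side of the gene's start was the only TAL1-only interval of the 22, chr11:61739059-61739682. It was 624 bp wide, and 3.08% of all TAL1-only intervals were at least as wide. After 3.77 kb followed a GATA1-only interval, chr11:61735071-61735284 (214 bp), centred 10.82 kb from the edge. The shared interval, chr11:61734125-61734407 (283 bp), came 663 bp further on, and a second GATA1-only interval, chr11:61730612-61730845 (234 bp), 3.28 kb after that, on the side of the neighbour BEST1.

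The FTL window on 19q13.33 held 2 intervals, both GATA1 only. The inner, chr19:49467136-49467316, was 181 bp wide and centred 9.23 kb from the edge on the side of the gene's start. The outer, chr19:49457650-49458181 (532 bp), only partly overlapped the window, with its centre 0.08 kb outside it, on the side of the neighbouring gene BAX. Whether this interval belongs to FTL or to BAX was not determined. A shared interval of 185 bp, chr19:49455073-49455257, lay 2.74 kb outside the window, and a TAL1-only interval of 237 bp 3.29 kb outside it. Both lie farther from FTL on the BAX side. Within the windows as set, FTH1 had TAL1 in 2 intervals and FTL in 0, but this contrast depends on the window edge. Extended by 10 kb on each side, the FTL window took in both of the intervals just named. It then held 4 intervals, 1 of them shared, and the FTH1 window 5, 1 of them shared.

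HMOX1 encodes heme oxygenase 1, which breaks down heme and is best known as a stress gene under the control of BACH1 and NRF2. Its 33 kb window on 22q12.3 held no interval of either list, and none appeared when it was extended by 10 kb on each side. The nearest were both shared, chr22:35612165-35612314 at 155 kb below the window and chr22:35917775-35918061 at 118 kb above. Of all tiles of 33 kb on chromosomes 1 to 22 and X, 84.6% held none either. Absence from a list says only that no interval passed the authors' threshold, and not that the factor was absent.

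**Figure D2:**
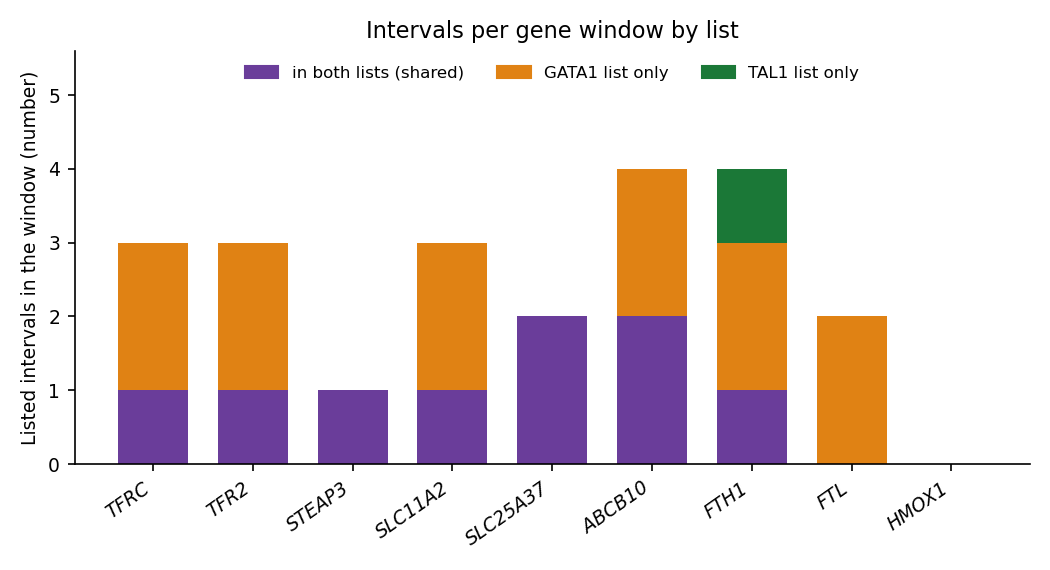
Number of listed intervals in each gene window, stacked by the list they stand in. ABCB10 and FTH1 have 4 each, TFRC, TFR2 and SLC11A2 have 3, SLC25A37 and FTL 2, STEAP3 1 and HMOX1 0.

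Across the genes, shared intervals kept to the side of the gene's start. All 9 of them were centred 9.43 to 17.32 kb from that edge of the window, with a median of 11.73 kb. The 12 GATA1-only intervals ranged from 0.08 kb outside the edge to 60.91 kb inside it. In STEAP3, SLC25A37 and ABCB10 the outermost interval beyond 9 kb was shared, and in the other 5 it was GATA1 only. In 4 of those 5, TFRC, TFR2, SLC11A2 and FTH1, the next interval inwards was shared, 0.91 to 4.49 kb away. At TFR2 and FTH1 the gap between the pair was 751 and 663 bp, and pairs as close may be parts of 1 enriched stretch. In ABCB10 and SLC25A37 both the outermost interval beyond 9 kb and the next one were shared. The 9 kb bound was no planned setting and lies just below the lowest distance of an interval it keeps, 9.23 kb. It leaves out the TAL1-only interval of FTH1, centred 6.63 kb from the edge, and the outer GATA1-only interval of FTL. Intervals outside the windows were not counted either. At ABCB10 a GATA1-only interval of 119 bp lay 3.33 kb beyond that edge, and those beyond SLC25A37 and FTL are given above. The intervals far from the gene's start, in TFRC, TFR2 and ABCB10, were GATA1 only. The farthest at TFR2 (41.12 kb in a window of 43 kb) and at ABCB10 (60.91 kb in 63 kb) lay close to the far edge. They may belong to the neighbours MOSPD3 and NUP133, so the contrast with shared intervals may partly compare different genes. The windows are of unequal length (the middle of the FTH1 window is near its shared interval), and their margins beyond the gene are not stated. No annotation of hg19 was used, so distances to start sites, exons and introns were not measured. The arrangement was noticed in these values and was not tested.

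Of the 21 GATA1 intervals in the windows, 9 (42.9%, exact 95% interval 21.8 to 66.0%) were also in the TAL1 list, against 30.9% of the whole GATA1 list. Of the 10 TAL1 intervals, 9 (90%, 55.5 to 99.7%) were also in the GATA1 list, against 78.9% of the 8914 TAL1 intervals on chromosomes 1 to 22 and X. Both confidence intervals include the value of the list, so at this number of intervals no difference was detectable. They treat neighbouring intervals as independent, which they may not be, and cover counting error only. By step of the pathway, 2 of 6 GATA1 intervals were shared for the transferrin receptors, 2 of 4 for STEAP3 and SLC11A2, 4 of 6 for SLC25A37 and ABCB10, and 1 of 5 for the ferritin chains.

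The windows held more intervals than most of the genome. They had 50.9 distinct intervals per Mb, against 8.12 per Mb on chromosomes 1 to 22 and X, a ratio of 6.27. At least 3 intervals, the median of the windows, stood in 4.84% of the 48 kb tiles. Since the windows were drawn around genes and the tiles were not, the difference cannot be called particular to iron genes. The genes and windows were also chosen with earlier results of these data known, so the density is no independent finding. Windows of other genes were not compared here.

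Against tiles of their own length, the windows fell into an order. As many intervals as at FTH1 stood in 0.728% of all tiles and in 5.72% of those with any interval. For ABCB10 these values were 3.83% and 16.3%. For TFR2, FTL, TFRC and SLC11A2 the share of all tiles was 4.16%, 4.34%, 5.73% and 6.98%, and among tiles with any interval it was 22.5%, 36.2%, 26.8% and 29.6%. The place of FTL rests on its outer interval, which only partly overlapped the window. Without that interval FTL would stand lower, as 88% of tiles of its length held none. SLC25A37 (12.7%) and STEAP3 (23.4%) were the least unusual by number among the 8 windows with an interval, and HMOX1 had none. By shared intervals alone the order changed: ABCB10 and SLC25A37, with 2 each, were matched by 3.04% and 3.11% of tiles of their length, and FTH1, with 1, by 4.57%. With 1 library per factor there is no error on these counts, so neighbours in the order that differ by 1 interval cannot be told apart.

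**Figure D3:**
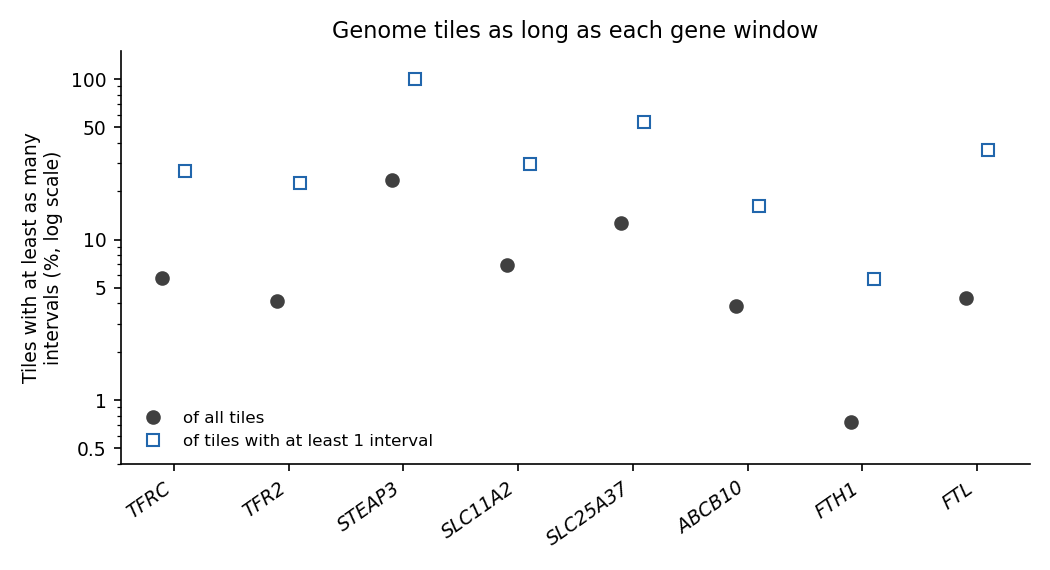
Share of genome tiles, each as long as the gene's window, that held at least as many listed intervals as the window (log scale), over all tiles (circles) and over tiles with at least 1 interval (squares). FTH1 is lowest at 0.728% and 5.72%, STEAP3 is highest at 23.4% and 100%, and HMOX1, with no interval, is not drawn.

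Median widths in the windows were above those of the whole classes. The 9 shared intervals measured 283 to 660 bp with a median of 427 bp, against 373 bp for all 7029 shared intervals, and 7 of 9 were above that median. The 12 GATA1-only intervals measured 112 to 687 bp with a median of 338 bp, against 264 bp for all 15740, and 7 of 12 were above it. The widest shared interval was in ABCB10, and the narrowest were in FTH1 (283 bp) and STEAP3 (294 bp). Boundaries are common to both lists, so a width is no separate measure of either factor.

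**Figure D4:**
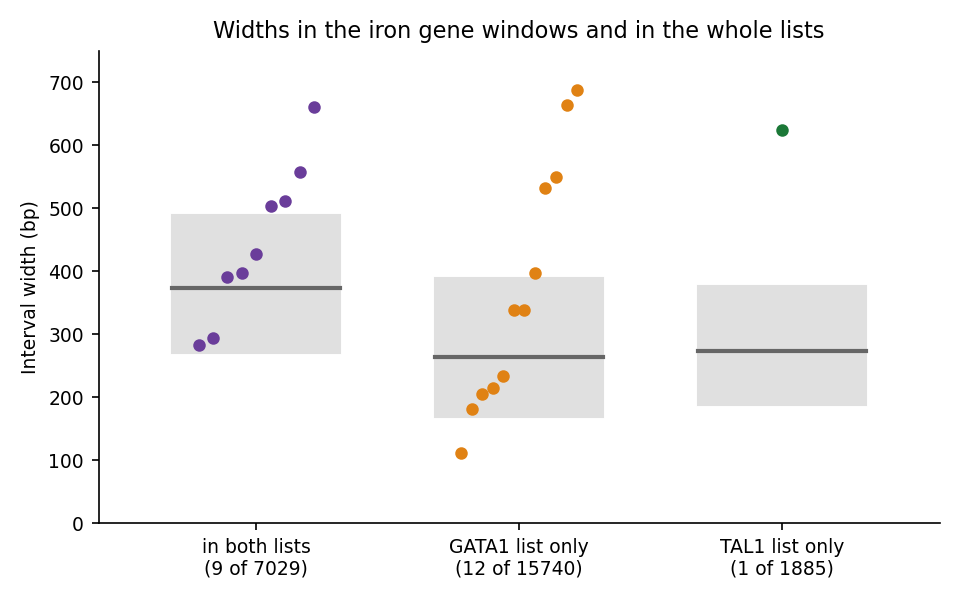
Widths in bp of the 22 intervals (points) beside all intervals of the same class on chromosomes 1 to 22 and X (grey box from the 25th to the 75th percentile, line at the median). Shared intervals of the windows range from 283 to 660 bp, and the TAL1-only interval at FTH1 is 624 bp.

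Intervals of a window often lay close together. Of the 14 pairs of neighbours within a window, 3 were at most 1 kb apart, at SLC25A37, TFR2 and FTH1, and 9 were at most 5 kb apart. Over all neighbouring intervals of chromosomes 1 to 22 and X, 14.3% were at most 1 kb apart and 27% at most 5 kb. Pairs within a window cannot be farther apart than the window is long, which favours short gaps, while pairs of the whole genome can. These shares are therefore not on equal terms, and no difference can be drawn from them. Whether the closest pairs are separate sites or parts of 1 enriched stretch cannot be told from lists without summits.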

How the data were processed

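The authors deposited interval lists as chromosome, start and end in hg19, with no other measure, and 2 of the 12 libraries, GATA1 and TAL1 in control cells, were used here. Trimmomatic, Bowtie2, MACS2 and deepTools are named without versions, per the submitters' processing notes. Thresholds, pooling and how the common boundaries of both lists arose are not given in the sources used here. Groups came from the sample titles, and the depth of each library is unknown.

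Windows were taken in kb as given for each gene, any overlap counted, and positions are counted from 1. All 9 genes and all their intervals are named. Counting used Python 3.11.15, numpy 2.4.6 and pandas 2.3.3, and exact (Clopper-Pearson) 95% intervals scipy 1.17.1. Figures were drawn with matplotlib 3.10.9. Counting was tested on simulated lists. Chromosome lengths came from GenomeInfoDb 1.38.1 and bands from circlize 0.4.16. Tiles did not overlap and began at the start of each chromosome. Gene direction came from the promoter table, or from textbook knowledge for TFR2, SLC25A37, FTH1 and HMOX1. Neighbouring genes are those next in order among RefSeq protein-coding genes of GRCh38.p14. The genes and windows were chosen with earlier results of these data known. GATAA, the TATA box and the GC box were added after the sequences were seen. Other iron genes were not counted, as no annotation of hg19 was used.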

Additional observations from a re-analysis of the deposited data

How the results depend on the processing

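The counts rest on 22 intervals from 2 libraries of unknown depth, so a deeper library or another threshold could change any of them. The share of GATA1 intervals also in the TAL1 list (42.9%) was 36.8 to 47.4% with each gene window left out in turn, lowest without SLC25A37 and highest without FTL. When shared meant a TAL1 interval within 1000 bp, this share was 52.4% (11 of 21). It was 50% with windows shortened by 5 kb on each side, and 50% with intervals narrower than the overall median left out. Windows extended by 10 kb on each side gave 39.3%, and joining intervals with gaps of at most 2 kb gave 44.4%. Shares over the whole lists were not recomputed under the 1000 bp, width or joining rule. The list value of 30.9% is therefore no reference for those results. The share of TAL1 intervals also in the GATA1 list (90%) was 87.5 to 100% with each window left out in turn. It was 100% without FTH1, whose window held the only TAL1-only interval. Extended windows gave 84.6% (11 of 13), and the 1000 bp rule left it at 90%. The median width (397 bp) was 394 to 412 bp with each window left out in turn, and 352 bp with windows extended by 10 kb on each side. In a split chosen after seeing the data, 8 of 14 GATA1 intervals (57.1%) centred at most 15 kb from the window edge on the side of the gene's start were shared, against 1 of 7 (14.3%) of those farther in. The split restates the arrangement noticed in these same intervals and is no separate evidence for it. Over tiles with at least 1 interval, 24.5% held at least 3, against 4.84% of all tiles, because empty tiles drop out. Windows extended by 10 kb on each side held 30 intervals, shortened by 5 kb 19, and with whole intervals only 21, against 22. With intervals narrower than the overall median left out, 15 were counted and 5 windows had a shared one, against 7. With the extended windows FTL gained a shared interval and 8 windows had one. No paired analysis was possible because each factor has 1 library.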
